A study of Mus musculus with 6 samples.

Results

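The interleukin 1 family and its receptors were followed here through 10 genes: the cytokine genes Il1a, Il1b, Il1f9 and Il18, the antagonist gene Il1rn, and the receptor genes Il1r1, Il1r2, Il1rap, Il18r1 and Il18rap. They were chosen by gene name, and all 10 were found among the 15035 rows of the deposited table. The libraries came from mouse leukemia cells in culture, which per the labels were BALB/c bone marrow cells made to express mutant CSF3R and mutant CEBPA from retroviruses. CSF3R is the receptor of granulocyte colony-stimulating factor and CEBPA is a myeloid transcription factor. In 3 libraries the cells had been given 4 nM GSK-LSD1 for 48 h, an inhibitor of the histone demethylase LSD1, and in 3 libraries they had been given DMSO, the solvent, for the same time. Both groups carried both mutant genes. No label tells if libraries of 1 group were grown as separate cultures, so each p-value reflects the spread among these libraries, which may be technical. The question of the design was which genes differ after the inhibitor alone.

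Cytokines of this family are made by myeloid and epithelial cells and start inflammation. Interleukin 1 alpha and beta (Il1a, Il1b) bind a signalling receptor (Il1r1), which then takes up an accessory chain (Il1rap). The antagonist (Il1rn) occupies that receptor without signalling, and the decoy receptor (Il1r2) binds the cytokine without passing a signal on. The same accessory chain serves the receptors of interleukin 33 (Il1rl1) and of the interleukin 36 cytokines (Il1rl2). Interleukin 18 has a binding chain (Il18r1) and an accessory chain (Il18rap) of its own, best known from T and NK cells. Il1b and Il18 proteins are made as precursors that caspase-1 cleaves.

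Values are read counts divided by 1 scaling factor per library, and the libraries held between 9572638 and 10199533 counted reads. Levels of different genes are compared per kb of annotated exon. Among all genes, 20.6% of the 11588 tested were higher and 20.5% lower with GSK-LSD1 (limma on log2(value + 1), Benjamini-Hochberg adjusted p under 0.05), and 49.5% had groups that did not overlap. A call in this experiment was thus common, and each member is described by its own size and spread. All tested genes together had a median log2 fold change of -0.01. The labelled cell type was checked against 12 myeloid progenitor markers. Of 11 that were tested, 5 rose, 4 fell and 2 did not pass. Those that fell were Elane, Prtn3, Ctsg and Myb (log2 fold changes -0.92, -0.67, -0.47 and -0.22). Mpo, which encodes myeloperoxidase, was at 8952 ± 164 with GSK-LSD1 and 7390.3 ± 377 with DMSO, and Cd34, a progenitor surface marker, at 1685 ± 4.38 and 299 ± 28.5 (SD, n = 3 each). Csf3r and Cebpa, whose mutant forms the cells also carry, were at 434 ± 14.6 and 4332 ± 49.0 with GSK-LSD1 and at 106 ± 12.8 and 4437 ± 562 with DMSO. Kit, the stem cell factor receptor gene, was low in both groups, at 28.1 ± 13.4 and 29.6 ± 4.82, and Flt3 was below the filter. Genes of mast cells and basophils were abundant in every library, with 11 listed markers summing to 41714 to 43237 with GSK-LSD1 and 33159.6 to 35411 with DMSO. Their largest share was Cpa3, which encodes a mast cell carboxypeptidase. In bulk RNA, a change in the share of cells that express a gene and a change in RNA per cell cannot be told apart.

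Of the 10 members 6 passed the filter on low values, and 4 of these passed the test, against 41.1% of all tested genes. The cytokine gene Il1f9, close to silent with DMSO, was 16.8-fold higher with GSK-LSD1, the decoy receptor gene Il1r2 and the interleukin 18 receptor gene Il18r1 rose, and the shared accessory chain gene Il1rap fell. Il1f9 and Il1r2 were past 2-fold, as were 4.51% of tested genes in that direction. The accessory chain gene of the interleukin 18 receptor, Il18rap, was at almost the same level in both groups. The classical cytokine genes Il1a, Il1b and Il18 and the antagonist gene Il1rn stayed at 0 to 9 reads in every library.

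**Figure D1:**
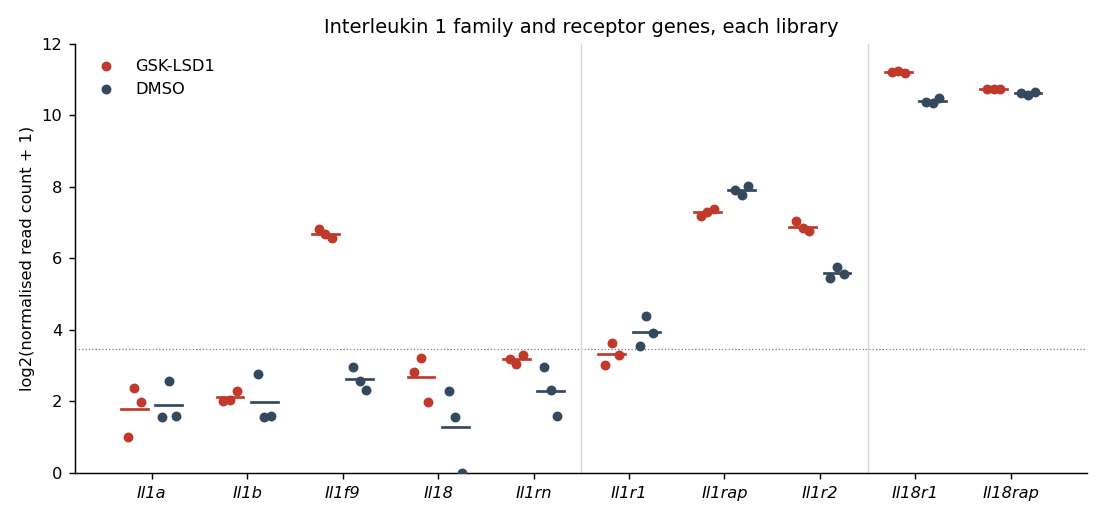
Normalised read count of the 10 genes in each library, as log2(value + 1), with GSK-LSD1 (red) left of DMSO (dark) and a bar at each mean of 3 libraries; the dotted line marks a value of 10 and the vertical lines part ligands, interleukin 1 receptors and interleukin 18 receptors. Il1f9 stands at about 103 against 5.26 on the linear scale, and the other cytokine genes and Il1rn lie below the dotted line in both groups.

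Il1f9 encodes the cytokine interleukin 36 gamma, which acts on skin, airway and myeloid cells through Il1rl2 and Il1rap. The gene lies on chromosome 2 (24186476 to 24193568, plus strand, GRCm38) and has 5 exon blocks. Its values were 111, 102 and 94.4 in GSK-LSD1 libraries, against 6.84, 4.95 and 3.98 in DMSO libraries. The groups were far apart, with nothing between 6.84 and 94.4. The log2 fold change was 4.07 with a standard error of 0.247 (limma, Benjamini-Hochberg adjusted p = 5.07e-16), or 16.8-fold, the sixth largest rise by rank among the 11588 tested genes. With each library's smallest value counted as 1 read, 305 reads over the GSK-LSD1 libraries stood against 16 over the DMSO libraries. Their ratio, 19.7, had a 95% interval of 11.96 to 34.98, and intervals of this kind cover counting error only. Il1f9 passed the filter on low values through its GSK-LSD1 libraries alone.

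The 250 bases before the RefSeq start of Il1f9, the member with the largest change, are printed with those of Il18rap and with 136 bases before Il18r1, the neighbouring pair that differed in response. Sequences are RefSeq's for the reference mouse strain C57BL/6J on GRCm38.p6, not for BALB/c, and run 5′ to 3′ on the plus strand. Capitals mark matches to any of 7 motifs searched on both strands: TTGCNNAA as bound by C/EBP factors, GAGGAAGT by PU.1, TGANTCA by AP-1, AGATAA by the GATA factors, GGTGTGA by T-box factors, AATCNNNGC by GFI1, and TATAAA, the core of the TATA box. No 2 matches in the printed stretches overlapped.
Il1f9, chr2:24186226-24186475: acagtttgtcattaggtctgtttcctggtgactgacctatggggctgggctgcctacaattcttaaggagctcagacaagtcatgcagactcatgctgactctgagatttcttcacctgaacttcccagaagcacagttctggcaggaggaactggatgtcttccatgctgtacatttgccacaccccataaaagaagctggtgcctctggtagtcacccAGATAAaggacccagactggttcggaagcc
Il18r1, chr1:40465416-40465551: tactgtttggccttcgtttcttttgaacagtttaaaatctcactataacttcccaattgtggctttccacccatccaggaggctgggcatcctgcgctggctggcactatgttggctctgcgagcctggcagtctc
Il18rap, chr1:40515112-40515361: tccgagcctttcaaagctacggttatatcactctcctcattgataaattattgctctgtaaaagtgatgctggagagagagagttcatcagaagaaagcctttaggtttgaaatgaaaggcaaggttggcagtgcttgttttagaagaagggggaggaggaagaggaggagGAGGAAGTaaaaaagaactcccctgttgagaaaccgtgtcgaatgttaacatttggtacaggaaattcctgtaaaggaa
The Il1f9 window held 1 match, to GATA, 30 to 25 bases before the start, a motif found in 9.99% of 32851 windows of 250 bases before RefSeq starts. The Il18rap window held 1 match to PU.1, found in 2.44% of those windows, 79 to 72 bases before the start. The Il18r1 stretch is shorter because the exons of Il1rl1 end just before it, and it held none of the 7. A match is a run of letters and not a shown binding site.

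The other cytokine genes were at the floor of detection in both groups. Il1b (chromosome 2, 129364570 to 129371139, minus strand) had 3.06, 3.11 and 3.89 in GSK-LSD1 libraries, against 5.86, 1.98 and 1.99 in DMSO libraries, which is 10 reads in each group (ratio 1.04, 95% interval 0.387 to 2.77). Il1a, its neighbour 54.6 kb away, had 1.02, 4.14 and 2.92 in GSK-LSD1 libraries, against 1.95, 4.95 and 1.99 in DMSO libraries. The ratio of its reads was 0.920, with an interval of 0.309 to 2.69. For both genes the groups overlapped, and a change within these intervals was not detectable at this depth. Exons of Il1b and Il1a overlap noncoding genes on the other strand (Il1bos and Gm14023, by 25 and 222 bases). Whether counting used strand is not given in the sources used here. Il1bos had 3 reads over the GSK-LSD1 libraries and 16 over the DMSO libraries (ratio 0.194, 95% interval 0.0363 to 0.678). Gm14023 was at means of 1.00 with GSK-LSD1 and 2.30 with DMSO, with groups that overlapped.

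Il18 (chromosome 9, 50554827 to 50581840, plus strand) had 6.12, 8.28 and 2.92 in GSK-LSD1 libraries, against 3.91, 1.98 and 0 in DMSO libraries. Its 17 reads against 6 reads gave a ratio of 2.93 with an interval of 1.10 to 9.09, and the groups overlapped. Il1rn (chromosome 2, 24336853 to 24351494, plus strand), the antagonist gene, had 8.16, 7.25 and 8.76 in GSK-LSD1 libraries, against 6.84, 3.96 and 1.99 in DMSO libraries. The Il1rn groups did not overlap, but 24 reads against 13 gave a ratio of 1.91 whose interval, 0.935 to 4.09, included 1. All 4 genes were below the filter and so had no test in the main fit. When the filter was dropped, their adjusted p by limma was 0.885 for Il1a, 0.858 for Il1b, 0.106 for Il1rn and 0.0539 for Il18. The log2 ratio of antagonist to agonist, Il1rn to Il1b, was 1.06 ± 0.0999 with GSK-LSD1 and 0.31 ± 0.381 with DMSO (SD, n = 3 each; exact two-sided permutation p = 0.1, the smallest that 3 against 3 allows), and rests on these few reads.

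Among the receptors of interleukin 1, the decoy gene rose, the accessory gene fell and the signalling receptor gene was barely expressed. Il1r2 (chromosome 1, 40074079 to 40125231, plus strand) had 131, 114 and 109 in GSK-LSD1 libraries, against 43.0, 53.5 and 46.8 in DMSO libraries. Every GSK-LSD1 library lay above every DMSO library, with no value between 53.5 and 109. The log2 fold change was 1.29 with a standard error of 0.149 (limma, Benjamini-Hochberg adjusted p = 7.06e-09), or 2.44-fold.

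Il1r1 (chromosome 1, 40225080 to 40317257, plus strand) had 7.14, 11.4 and 8.76 in GSK-LSD1 libraries, against 10.7, 19.8 and 13.9 in DMSO libraries. These groups overlapped, and the log2 fold change of -0.63 had a 95% confidence interval of -1.34 to 0.08 (limma, Benjamini-Hochberg adjusted p = 0.148). Under quantile scaling the value was -0.99 with an adjusted p of 0.0267. Decoy stood above signalling receptor in all 6 libraries: the Il1r2 value was 18.3, 10 and 12.4 times that of Il1r1 in GSK-LSD1 libraries, against 4, 2.7 and 3.36 times in DMSO libraries. The mean log2 ratio differed by 1.92 (3.57 ± 0.407 with GSK-LSD1 and 1.66 ± 0.259 with DMSO, SD, n = 3 each; exact two-sided permutation p = 0.1, the smallest possible). These are ratios of values not corrected for exon length. They rest on few reads of Il1r1, 27 over the GSK-LSD1 libraries and 45 over the DMSO libraries.

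Il1rap (chromosome 16, 26581704 to 26730117, plus strand) had 144, 155 and 167 in GSK-LSD1 libraries, against 242, 218 and 261 in DMSO libraries. The groups did not overlap, and the highest GSK-LSD1 library, at 167, was below the lowest DMSO library. The log2 fold change was -0.62 with a standard error of 0.0998 (limma, Benjamini-Hochberg adjusted p = 3.91e-06), which is 1.54-fold lower. Its exons share 552 bases with Gm20319 on the other strand, which was itself at 27.9 ± 2.63 with GSK-LSD1 and 27.7 ± 5.64 with DMSO (SD, n = 3 each). Il1rap makes membrane and soluble forms of the protein, and a value per gene does not separate them.

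The interleukin 18 receptor genes were the most highly expressed members. Il18r1 (chromosome 1, 40465552 to 40500854, plus strand) had 2371, 2417 and 2353 in GSK-LSD1 libraries, against 1328, 1302 and 1433 in DMSO libraries. The gap between the groups was far wider than the range within either. The log2 fold change was 0.81 with a standard error of 0.0488 (limma, Benjamini-Hochberg adjusted p = 3.47e-16), or 1.76-fold.

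Il18rap (chromosome 1, 40515362 to 40551705, plus strand), which starts 14.5 kb past the end of Il18r1, had 1699.7, 1721 and 1717 in GSK-LSD1 libraries, against 1588, 1527 and 1629 in DMSO libraries. The groups did not overlap, but the difference was small, with a log2 fold change of 0.12, a 95% confidence interval of 0.02 to 0.21 and an adjusted p of 0.0523 (limma with Benjamini-Hochberg adjustment). This value sits at the threshold: the adjusted p was 0.0229 with equal library totals, 0.0158 with quantile scaling, 0.0225 without DMSO replicate 3, and 0.170 without DMSO replicate 2. The log2 ratio of Il18r1 to Il18rap was 0.48, 0.49 and 0.45 in GSK-LSD1 libraries, against -0.26, -0.23 and -0.18 in DMSO libraries. These ratios are not corrected for exon length: per kb of exon, Il18r1 was above Il18rap in all 6 libraries, at 492, 502 and 489 against 252, 255 and 254 with GSK-LSD1, and at 276, 270.3 and 298 against 235, 226 and 241 with DMSO. The mean log2 ratios differed by 0.70, well beyond the spread within either group (SD 0.0179 with GSK-LSD1 and 0.0371 with DMSO, n = 3 each; exact two-sided permutation p = 0.1, the smallest possible).

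**Figure D2:**
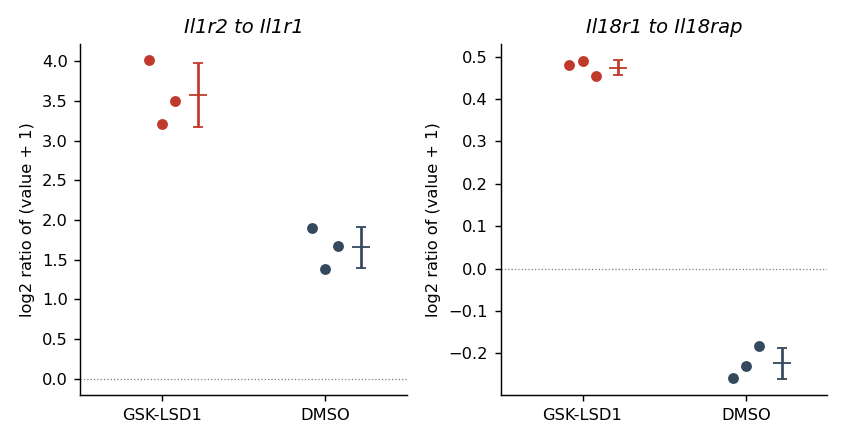
Log2 ratio of 2 receptor genes within each library (points), with mean and SD of 3 libraries per group beside them and GSK-LSD1 left of DMSO; the dotted line marks equal values before any correction for exon length, and the vertical axes differ. For Il18r1 to Il18rap, the GSK-LSD1 libraries lie between 0.45 and 0.49 and the DMSO libraries between -0.26 and -0.18.

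Per kb of exon, levels in GSK-LSD1 libraries were 494 ± 6.81 for Il18r1, 254 ± 1.69 for Il18rap, 62.3 ± 5.10 for Il1f9, 61.7 ± 5.93 for Il1r2 and 13.7 ± 1.04 for Il1rap (SD, n = 3). Il1f9 and Il1r2 did not differ beyond their spread. The other 5 genes lay between 1.36 and 5.60. Il18 was the highest of these in every GSK-LSD1 library (5.94, 8.03 and 2.83), though on few reads. The order of the rest is not resolved by these few reads. In DMSO libraries, levels per kb were 281 ± 14.4 for Il18r1, 234 ± 7.57 for Il18rap, 25.03 ± 2.80 for Il1r2 and 21.2 ± 1.89 for Il1rap, and the ranges of the last pair within 1 SD overlapped. Il1f9 was there at 3.19 ± 0.880, among the lowest genes, and the other 5 lay between 0.770 and 2.33. Il1f9 thus stood level with the decoy receptor gene in GSK-LSD1 libraries and near the floor in DMSO libraries.

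**Figure D3:**
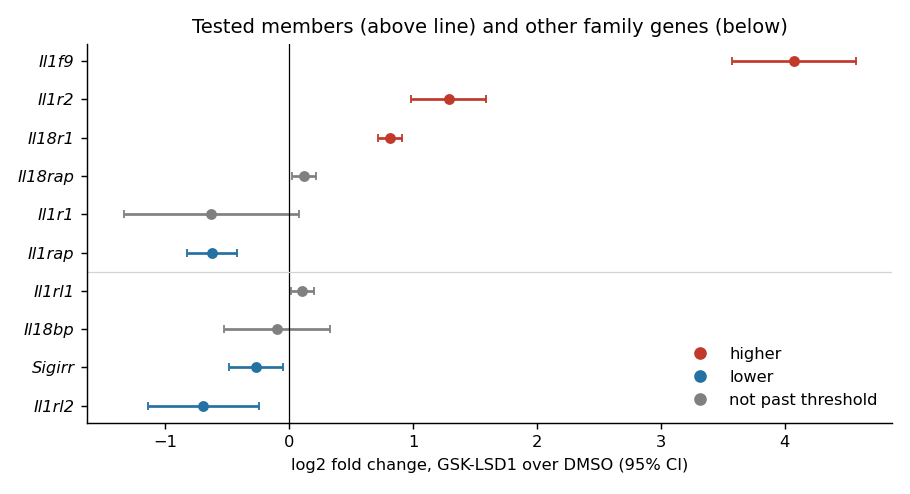
Log2 fold change of GSK-LSD1 over DMSO with its 95% confidence interval (limma, 3 libraries per group) for the 6 members that were tested and, below the line, for the 4 other tested genes of the family; red is higher, blue lower and grey not past the threshold. Il1f9 lies at 4.07, and the remaining points lie between -0.69 and 1.29.

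Of 11 further genes of the family on a list of ligands, receptors and the interleukin 18 binding protein, 4 were in the table and all were tested. None was higher, 2 were lower and 2 did not pass, beside 20.6% higher and 20.5% lower among all tested genes. The median log2 fold change of the 4 was -0.18. Il1rl1, which encodes the interleukin 33 receptor ST2, was the most abundant receptor gene of the family by value: 3644, 3684 and 3675 in GSK-LSD1 libraries, against 3559, 3226 and 3446 in DMSO libraries. Its groups did not overlap, and its log2 fold change of 0.11 missed the threshold (95% confidence interval 0.01 to 0.20, limma, Benjamini-Hochberg adjusted p = 0.0573). Il1rl1 passed as higher with equal totals, upper quartile or quantile scaling, precision weights, and without DMSO replicate 1 or 3. Per kb of exon Il1rl1 was at 532 ± 3.02 with GSK-LSD1 and 495 ± 24.5 with DMSO (SD, n = 3 each), above Il18r1 in both groups.

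The gene for the receptor of interleukin 36, Il1rl2, had 35.7, 43.5 and 21.4 in GSK-LSD1 libraries, against 67.4, 44.6 and 48.8 in DMSO libraries. The groups just failed to overlap, and the log2 fold change was -0.69 (limma, Benjamini-Hochberg adjusted p = 0.0107). That call was lost without GSK-LSD1 replicate 3 (-0.41, adjusted p = 0.137) and without DMSO replicate 1 (-0.52, adjusted p = 0.0897). Sigirr, which encodes an inhibitory receptor of the family, had a log2 fold change of -0.27 (142 ± 8.70 with GSK-LSD1 and 172 ± 12.6 with DMSO, SD, n = 3 each; adjusted p = 0.0413), and its call was lost without any one of 4 libraries: GSK-LSD1 replicates 1 and 2 and DMSO replicates 1 and 3, with an adjusted p of up to 0.165. Il18bp, the gene of the soluble inhibitor of interleukin 18, was at 31.9 ± 2.86 with GSK-LSD1 and 34.2 ± 2.21 with DMSO (SD, n = 3 each; adjusted p = 0.734).

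Of the 10 members, 4 receptor genes lie with Il1rl2 and Il1rl1 in a stretch of 478 kb on chromosome 1, all on the plus strand, in the order Il1r2, Il1r1, Il1rl2, Il1rl1, Il18r1 and Il18rap. The genes of this row did not all share a direction or a size of change. By sign alone, Il1r1 and Il1rl2 both had negative log2 fold changes. Those of Il1rl1, Il18r1 and Il18rap, next to each other, were all positive. Il1r2 and Il18r1 rose, Il1rl2 fell, and Il1r1, Il1rl1 and Il18rap did not pass. Il18r1 begins only 0.137 kb after Il1rl1 ends, yet their log2 fold changes were 0.81 and 0.11. Outside the row, Map4k4, a kinase gene 47.8 kb before Il1r2, rose to 2065 ± 34.9 with GSK-LSD1, against 997 ± 1.82 with DMSO (SD, n = 3 each; log2 fold change 1.05), and the sodium-proton exchanger gene Slc9a2 on the other side was 23.2 ± 2.34 and 6.58 ± 1.52 (log2 fold change 1.69, with only the GSK-LSD1 libraries past the filter). Around all members together, 28 other genes of the table lay within 200 kb of one, of which 19 were tested. Of these, 3 rose, 6 fell and 10 did not pass, with a median log2 fold change of -0.12. The shares of all tested genes were 20.6% higher and 20.5% lower. Psd4, the only tested gene that is no member within 200 kb of Il1f9 or Il1rn, had a log2 fold change of -0.24 (limma, Benjamini-Hochberg adjusted p = 0.000151).

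**Figure D4:**
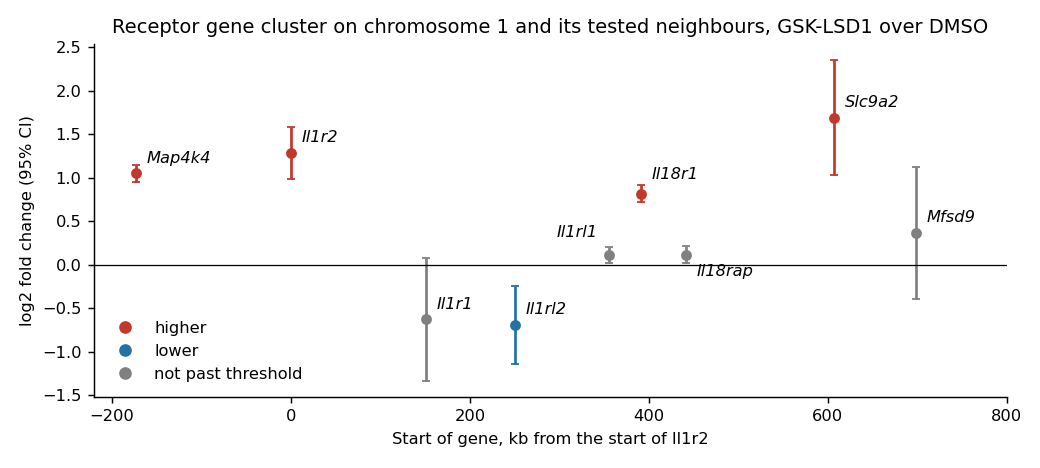
Log2 fold change of GSK-LSD1 over DMSO with its 95% confidence interval (limma, 3 libraries per group) for tested genes of the receptor cluster on chromosome 1 and beside it, by the start of the gene in kb from the start of Il1r2; red is higher, blue lower and grey not past the threshold. Il1r2 (1.29) and Il18r1 (0.81) lie above 0 with Il1r1 (-0.63) and Il1rl2 (-0.69) below 0 between them.

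The 5 other tested genes whose values ran most nearly parallel to Il1f9 over the 6 libraries were Abr, Scpep1, Adgre1, Glg1 and Mtus1, with Pearson r between 0.9994 and 0.9997 on log2(value + 1). The libraries form 2 groups and 209 other genes had r above 0.99, so this likeness mostly records the difference between groups. Of these 5, Adgre1, the gene of the macrophage marker F4/80, was at 158 ± 4.40 with GSK-LSD1 and 17.4 ± 2.83 with DMSO (SD, n = 3 each).

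Of 21 listed genes that process and release these cytokines, 20 were tested: 10 rose, 4 fell and 6 did not pass, and the median log2 fold change was 0.30. Among all tested genes, 20.6% rose and 20.5% fell, with a median of -0.01, and the list was not tested against them. Nlrp3, the sensor of the inflammasome that activates caspase-1, was at 59.7 ± 9.30 with GSK-LSD1 and 7.90 ± 0.928 with DMSO, and Casp1 itself, named after its values were seen, at 205 ± 17.4 and 118 ± 8.54 (SD, n = 3 each; log2 fold changes 2.76 and 0.79). Ctss, whose protease cleaves human interleukin 36 gamma, was at 326 ± 38.9 with GSK-LSD1 and 47.4 ± 7.39 with DMSO, and Capn2, a calpain gene, at 2042 ± 86.7 and 738 ± 35.6 (log2 fold changes 2.76 and 1.47). Nlrp3 passed the filter through its GSK-LSD1 libraries alone. Exons of Capn2 overlap Gm37885 on the other strand. The genes that fell most were Elane (-0.92), Prtn3 (-0.67) and Ctsg (-0.47), which encode the neutrophil serine proteases that can cleave cytokines of the family. Pycard, the adaptor between sensor and caspase, had a log2 fold change of -0.11 and did not pass. With genes below a mean value of 50 left out, the list median was 0.0815.

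Of 20 tested among 21 listed genes that carry the receptor signal, 5 rose, 1 fell and 14 did not pass, beside 20.6% rising and 20.5% falling among all tested genes. The median log2 fold change of the list was 0.03. Myd88, the adaptor shared by the signalling receptors of the family, was at 965 ± 59.4 with GSK-LSD1 and 1017 ± 38.0 with DMSO (SD, n = 3 each; limma, Benjamini-Hochberg adjusted p = 0.287). Irak1, Irak4 and Traf6, the kinases and the ubiquitin ligase downstream of Myd88, had log2 fold changes of -0.01, 0.08 and -0.08 without passing. The largest rises were in Peli2 (0.99), a ubiquitin ligase gene, and the kinase genes Map3k8 (0.66) and Map3k3 (0.45). Map3k8 was not past the threshold under quantile scaling (0.43, adjusted p = 0.0847). Exons of Peli2 overlap those of Gm6498 on the same strand, so reads of the 2 may be shared. Irak3, which encodes an inhibitor of the pathway, had a log2 fold change of -0.19, lost as a call without GSK-LSD1 replicate 2 (adjusted p = 0.127) and without DMSO replicate 3 (adjusted p = 0.0606).

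Of 17 tested among 24 listed genes known to be induced by interleukin 1, 5 rose, 3 fell and 9 did not pass, with a median log2 fold change of 0.03. These counts lie near the shares of all tested genes, 20.6% higher and 20.5% lower. The acute phase gene Saa3 was at 129.8 ± 1.51 with GSK-LSD1 and 33.9 ± 4.67 with DMSO, and Lcn2, which encodes lipocalin, at 809.7 ± 27.9 and 363 ± 38.4 (SD, n = 3 each; log2 fold changes 1.91 and 1.16). Both are also known as genes of maturing neutrophils and macrophages. The chemokine gene Cxcl2 had a log2 fold change of 0.95, with its call lost without GSK-LSD1 replicate 2 or 3 or DMSO replicate 2 (adjusted p up to 0.113). Ptgs2, the cyclooxygenase gene, fell by 1.25 on the log2 scale, Sod2 by 0.19 and Icam1 by 0.18. Cxcl2 passed the filter on low values through its GSK-LSD1 libraries alone, and Ptgs2 through its DMSO libraries alone. The feedback genes Nfkbia and Tnfaip3, often used as a readout of the pathway, had log2 fold changes of -0.10 and -0.43 and did not pass (limma, Benjamini-Hochberg adjusted p = 0.261 and 0.0709). The cytokine genes Il6 and Tnf, also readouts of it, rose, by 0.83 and 0.82. These 4 genes were named after their values were seen.

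Of 9 tested among 14 genes of the response to interleukins 12 and 18, 1 rose, 3 fell and 5 did not pass. Of all tested genes, 20.6% rose and 20.5% fell. The median log2 fold change of the list was -0.13. Tbx21, the gene of T-bet, a T-box transcription factor of these lymphocytes, had 581 reads over the GSK-LSD1 libraries and 1 over the DMSO libraries, which is 602 times as many after scaling (95% interval 108 to 23805). Tbx21, too, passed the filter through its GSK-LSD1 libraries alone. The cytokine gene Ifng, which T-bet and interleukin 18 together induce in lymphocytes, had 2 reads over the GSK-LSD1 libraries and 0 over the DMSO libraries. Il12rb2, the gene of a receptor chain for interleukin 12, was at 135 ± 9.96 with GSK-LSD1 and 202 ± 14.3 with DMSO (SD, n = 3 each; log2 fold change -0.58), although its exons overlap those of Serbp1 on the other strand. Gadd45g fell by 0.44 and Il2ra by 0.29 on the log2 scale. Gzmb, the granzyme B gene, was at 51524 ± 579 with GSK-LSD1 and 50747 ± 3122 with DMSO and did not pass (limma, Benjamini-Hochberg adjusted p = 0.732).

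**Figure D5:**
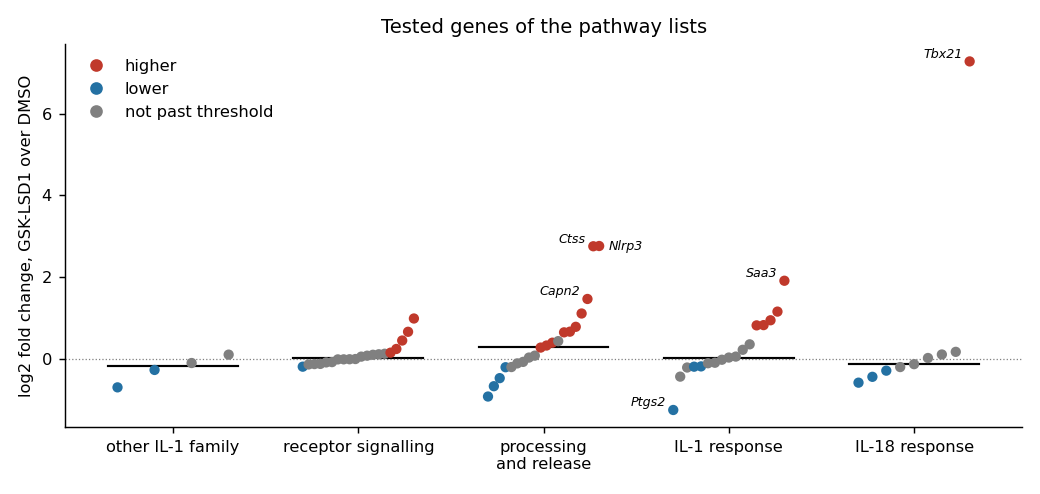
Log2 fold change of GSK-LSD1 over DMSO (limma, 3 libraries per group) for every tested gene of 5 lists, ordered by size within a list, with a black bar at the list median; red is higher, blue lower and grey not past the threshold. The medians lie at -0.18, 0.03, 0.30, 0.03 and -0.13 from left to right, and the fitted value of Tbx21 depends on the added 1, since DMSO libraries held 1 read.

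Markers of other cell types moved beside these genes, and their part in the results was not tested. Counts of markers that rose or fell stand beside 20.6% higher and 20.5% lower among all tested genes. Of 13 T cell markers 6 were in the table. Cd3d had 0 reads over the GSK-LSD1 libraries and 3 over the DMSO libraries, Cd3g had 30 and 12 (ratio 2.59, 95% interval 1.29 to 5.55), Cd2 had 2 and 0, and Cd5 had 2 and 4. The other T cell markers, Cd28 and Lck, were at 35.3 ± 2.39 and 82.8 ± 3.43 with GSK-LSD1 and at 11.5 ± 0.55 and 122 ± 13.97 with DMSO (SD, n = 3 each), a rise and a fall past the threshold. The list summed to 129 to 130.4 with GSK-LSD1 and 132 to 154 with DMSO.

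Of 8 NK cell markers 4 were in the table and 3 were tested, with sums of 1692 to 1864 and 1491 to 1541. Gzma, the granzyme A gene and the largest part of these sums, rose (log2 fold change 0.27), while Il2rb and Klrb1c did not pass. Of 11 mast cell and basophil markers, whose cells are known to carry ST2 and the interleukin 18 receptor, 10 were tested, of which 4 rose, 2 fell and 4 did not pass. Of 11 monocyte and macrophage markers 6 were tested, of which 5 rose and none fell, with sums of 1108 to 1199 with GSK-LSD1 and 568 to 633 with DMSO. Csf1r, among those that rose, passed the filter only because of its GSK-LSD1 libraries, as its DMSO values were 16.6, 9.91 and 8.96. Of 7 B cell markers 4 were in the table and only Cd22 was tested. It rose (37.6 ± 4.64 with GSK-LSD1 and 5.62 ± 3.79 with DMSO, SD, n = 3 each). Cd22 passed the filter on low values through its GSK-LSD1 libraries alone. Of 11 stromal and endothelial markers the 3 in the table, Col1a1, Pdgfrb and Pecam1, rose by log2 fold changes of 0.24 to 0.50.

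Mature neutrophils are known to express Il1r2 strongly. Of 10 neutrophil markers 6 were tested, of which 5 rose and 1 fell, with sums of 21289 to 21972 with GSK-LSD1 and 4489 to 4906 with DMSO. Mmp8 was at 15579 ± 296 with GSK-LSD1 and 2376 ± 61.2 with DMSO, Cxcr2 at 251 ± 12.4 and 53.9 ± 14.1, and Mmp9 at 74.0 ± 0.848 and 9.22 ± 1.56 (SD, n = 3 each). Mmp9 passed the filter on low values only because of its GSK-LSD1 libraries, as its DMSO values were 7.81, 10.9 and 8.96. S100a8 and S100a9 rose as well, and Ngp fell (18.9 ± 4.63 with GSK-LSD1 and 46.5 ± 11.7 with DMSO). Ltf and Retnlg were below the filter, at means of 2.01 and 3.05 with GSK-LSD1 and 4.94 and 0 with DMSO.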

How the data were processed

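RNA-seq values of 6 libraries were analysed, 3 per group, assigned by their titles. The deposited values are a normalised signal for each gene symbol in each library. The values themselves show them to be read counts divided by 1 factor per library, since every value was a whole multiple of the library's smallest (within 0.01), which lay between 0.973 and 1.04. Per the submitters' processing notes, STAR, DESeq2 and the builds mm10 and GRCm38 were used, with no version or role, while the sources used here name no read counter, annotation or strand setting. The values are not the authors' raw counts, so no count model was run. Read numbers given for low genes take the smallest value as 1 read.

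Genes with a value of at least 10 in at least 3 libraries were tested on log2(value + 1) in R 4.3.3 with limma 3.58.1, two-sided, using a mean-variance trend and no replicate term, and p-values were adjusted by Benjamini-Hochberg over all 11588 genes. Fold changes on this scale understate those of low genes. Within-library ratios were compared by exact permutation tests. Low genes were described by reads in units of the smallest value, with exact 95% counting intervals. Positions and exon lengths are from GENCODE M21 (GRCm38), and promoter sequences, found for all 10 members, from RefSeq. Libraries of 1 group differed by more than sampling noise (chi-square per degree of freedom 1.57 to 3.51) and counted as separate samples. The members, gene lists and naming rule (all members, and up to 3 called genes per direction and list) were chosen with earlier results of these data known. Myd88, Irak1, Irak4, Traf6, Pycard and Gzmb, which were not called, were named outside this rule.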

Additional observations from a re-analysis of the deposited data

How the results depend on the processing

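Calls of Il1f9, Il1r2, Il18r1 and Il1rap kept direction and side of the threshold under all settings that could test them. Leaving out 1 library at a time gave 3.92 to 4.25, 1.21 to 1.37, 0.79 to 0.86 and -0.69 to -0.56. Il1r1 passed with quantile scaling (-0.99), and lay between -0.83 and -0.41 with 1 library left out. Il18rap passed at a mean value of at least 50 (0.12), with equal totals (0.14), upper quartile (0.13) or quantile scaling (0.14) and precision weights (0.14), and ranged from 0.0908 to 0.14 with 1 library left out. Genes higher and lower numbered 2389 and 2373, between 2056 and 2363 and between 1961 and 2289 with 1 library left out, and 2001 and 1662 without the variance trend. Rises were 50.2% of calls, 44.4% with quantile scaling and 55.1% with equal totals, and no scaling moved the median of all genes by more than 0.05. Low depth limits Il1a, Il1b, Il1rn and Il18.

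Of the other family genes, 1 was higher with equal totals, upper quartile and quantile scaling and precision weights, and 0 to 1 with a library left out. That gene was Il1rl1, the only 1 of them with a positive log2 fold change in the main fit. Lower was 1 with no filter, a mean of at least 50, equal totals, upper quartile scaling, no trend and precision weights, and 0 to 2 with a library left out. Their median was -0.0814 at a mean of at least 50 and -0.35 with quantile scaling. In receptor signalling, 3 were higher and 2 lower at a mean of at least 50, 0 lower without trend and 0 to 2 lower with a library left out. That median was 0.0571 without filter and -0.0043 at a mean of at least 50, and -0.0253 to 0.0654 with a library left out. In processing and release the median was 0.0815 at a mean of at least 50, 0.18 with quantile scaling and 0.20 to 0.33 with a library left out. In the interleukin 1 response, 3 were higher at a mean of at least 50, and the median was 0.14 without filter, 0.0541 with equal totals, 0.0545 with precision weights, -0.0228 with quantile scaling and -0.0082 to 0.0691 with a library left out. In the interleukin 18 response, 2 were higher without filter, and the median was -0.20 at a mean of at least 50, -0.25 with quantile scaling and -0.28 to 0.0714 with a library left out. The causes were not tested.

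The replicate numbers in the titles did not pair libraries across groups: same-numbered libraries correlated at -0.0241, -0.0276 and -0.0077 in their deviations from the group means. With the replicate block, 2345 genes were higher and 2316 lower, and no call of a member changed.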
